A study of Homo sapiens with 8 samples.

Results

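The 8 genes described here, DUSP4, DUSP5, DUSP6, SPRY1, SPRY2, SPRY4, SPRED1 and SPRED2, encode negative regulators of the RAS, RAF, MEK and ERK kinase cascade. They were taken by symbol from a table of 62649 genes, all 8 were found, and all 8 were among the 19122 genes that reached 1 TPM in at least 2 libraries. TPM is a transcript abundance corrected for transcript length and expressed as a share of each library's total, so levels of different genes can be set side by side but sequencing depth cannot be read from them, and the precision set by depth is unknown.

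RNA was sequenced from AsPC-1 and PANC-1, 2 established human pancreatic cancer cell lines whose genotype was labelled WT. Cells were maintained in RPMI with serum, grown as spheroids in methylcellulose medium for 3 days and exposed for 24 h. In each line 1 library came from cells given vehicle, 1 from cells given 10 µM roseoflavin, 1 from cells given 1 nM trametinib and 1 from cells given 10 µM roseoflavin with 1 nM trametinib. Roseoflavin is a riboflavin analogue with antibiotic activity, and trametinib is an allosteric inhibitor of the kinases MEK1 and MEK2. No group had a replicate, so the spread in each test came from the other line and the other compound, and the p-values measure only the spread between these 8 libraries. Each line is a single established line, and differences between the lines cannot be told apart from differences between their cultures.

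When ERK is active it phosphorylates transcription factors, several of them of the ETS family, and these turn on genes whose products dampen the pathway. DUSP4, DUSP5 and DUSP6 are dual-specificity phosphatases that remove the activating phosphates from MAP kinases; DUSP6 is cytoplasmic and selective for ERK, DUSP5 is nuclear and selective for ERK, and DUSP4 is nuclear and also acts on other MAP kinases. Sprouty proteins (SPRY1, SPRY2, SPRY4) and the related SPRED proteins (SPRED1, SPRED2) act upstream, between receptor tyrosine kinases and RAF, and SPRED1 brings the RAS inactivator neurofibromin to the membrane. Because DUSP6, SPRY2 and SPRY4 transcripts depend on ERK output in many cell types, they are widely used as readouts of MEK inhibition.

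The 4 promoter stretches below are shown because these genes differed in how they stood with trametinib: DUSP6 and SPRY4 were lower, SPRED1 was higher, and SPRY1 had no common direction. They are RefSeq sequence of GRCh38.p14, read 5′ to 3′ on the strand of the gene, and the capitals mark GGAA or its reverse complement TTCC, the core letters of ETS binding sites. The SPRY4 and SPRY1 stretches are the 250 bases before a RefSeq transcript start, at chr5:142324248-142324497 on the minus strand and chr4:123396545-123396794 on the plus strand. The DUSP6 and SPRED1 stretches are limited to 30 bases, at chr12:89352642-89352671 on the minus strand and chr15:38252751-38252780 on the plus strand, because the GENCODE 29 gene models place that sequence within the first exon. Each was picked as the 30 bases with the most marked cores in the 250 bases before the start, so its density of cores reflects that choice.
DUSP6: ggggcttatccggagcGGAAaTTCCtTTCC
SPRY4: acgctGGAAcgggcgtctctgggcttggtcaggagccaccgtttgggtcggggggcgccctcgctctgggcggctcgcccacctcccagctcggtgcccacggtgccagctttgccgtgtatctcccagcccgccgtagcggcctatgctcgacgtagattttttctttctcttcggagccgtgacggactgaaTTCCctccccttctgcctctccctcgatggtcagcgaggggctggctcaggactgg
SPRED1: tgcTTCCtcctcgccgcatccctgagGGAA
SPRY1: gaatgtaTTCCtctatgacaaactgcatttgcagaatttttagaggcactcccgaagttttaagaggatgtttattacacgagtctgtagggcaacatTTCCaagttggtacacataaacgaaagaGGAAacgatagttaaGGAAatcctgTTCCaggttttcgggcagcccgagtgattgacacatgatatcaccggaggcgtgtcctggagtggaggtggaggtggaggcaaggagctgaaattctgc
The windows searched were the 250 bases before each start, on both strands, and 10 starts of 6 of the 8 genes were available. GGAA occurred 6 times in the DUSP6 window, 3 of them in the stretch shown, 2 times in the SPRY4 window, 3 times in the SPRED1 window and 5 times in the SPRY1 window shown. Of 35114 RefSeq windows of the same length, 92.7% held GGAA at least once, the median was 3 matches, and 9.14% held 6 or more. The longer ETS site CCGGAAG occurred in 8.52% of all windows and, among the 10 windows of these genes, 1 time, at a start of SPRY1 other than the one shown. The AP-1 site TGANTCA (6.57% of all windows), the cAMP response element TGACGTCA (1.65%) and the CArG box bound by serum response factor (1.16%) had no match in the 10 windows. The shorter cAMP core TGACG, which is contained in TGACGTCA, was found in 21.2% of all windows and occurred 1 time before SPRY4 and 1 time before SPRY2. Of these 4 windows the DUSP6 window held the most GGAA cores and the SPRY4 window the fewest. The other windows of the SPRY1, SPRY2 and SPRED2 genes held 3 to 5. The SPRY4 window lies within the GENCODE 29 gene, which runs to 142326455. The DUSP6 and SPRED1 windows also lie within their genes, as do some of the other windows of SPRY1, SPRY2 and SPRED2. The SPRY1 window shown lies before its gene. Many of the counts are therefore of sequence inside annotated genes, and the shares over all windows were not split in this way. A link between the number of cores and the trametinib values was not tested.

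The lines matched their epithelial origin to different degrees. The summed level of 5 epithelial markers was 7392 to 8509 TPM in AsPC-1 and 2709 to 3029 TPM in PANC-1, and that of 4 mesenchymal markers was 668 to 825 TPM in AsPC-1 and 3155 to 3416 TPM in PANC-1. VIM made up nearly all of the mesenchymal sum, at 660 to 816 TPM in AsPC-1 and 3132 to 3391 TPM in PANC-1. ZEB1, CDH2 and FN1 were also higher in PANC-1 but reached at most 18.8 TPM. No endothelial, acinar or endocrine marker reached 1 TPM, and 1 fibroblast marker stood out in each line, LUM at 103 to 146 TPM in AsPC-1 and COL1A1 at 98.9 to 107 TPM in PANC-1. Of 3 leukocyte markers, CD68, a lysosomal protein that other cells also make, was at 108 to 114 TPM in AsPC-1 and 120 to 139 TPM in PANC-1, while PTPRC and CD3E stayed at or below 0.019 TPM. The part of these markers in the results below was not tested. Transcripts of the mitochondrial genome took 41.2% to 44.1% of TPM in AsPC-1 and 22.8% to 25.6% in PANC-1, a gap that lowers every nuclear gene of AsPC-1 on this scale.

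The 2 lines carried different sets of these feedback genes. AsPC-1 had high DUSP6 and DUSP4 and almost no DUSP5, whereas PANC-1 had DUSP5, little DUSP6, almost no DUSP4, and more SPRY4. SPRY1, SPRY2, SPRED1 and SPRED2 stood within 1.70-fold of each other between the lines. All 8 genes passed the test for a difference between lines, as did 83.8% of all genes tested, and no gene of the 8 had overlapping lines, as was true of 79.2% of all genes, so the sizes and not the calls set these genes apart from one another.

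**Figure D1:**
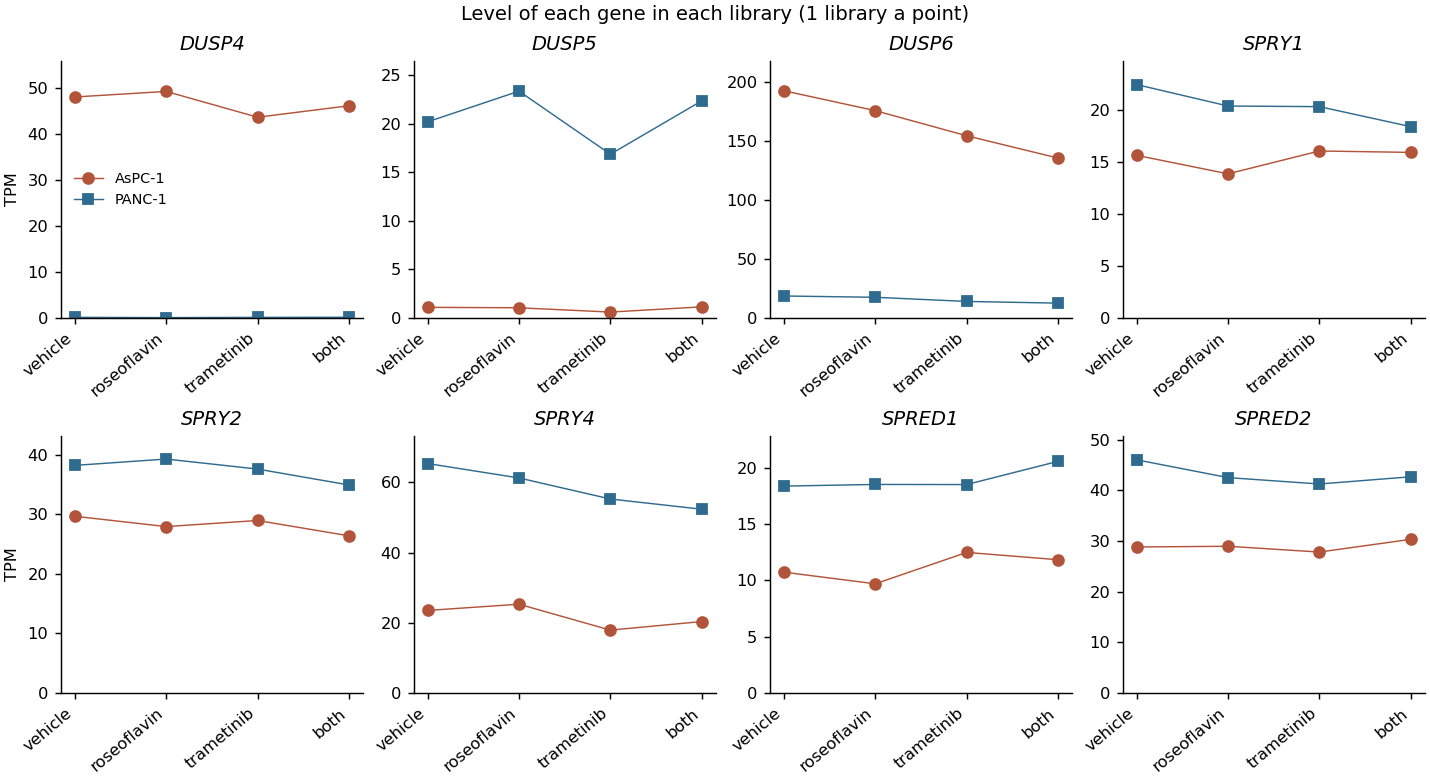
Level of each of the 8 genes in TPM (vertical axis, from 0) in the vehicle, roseoflavin, trametinib and combination libraries of AsPC-1 (circles) and PANC-1 (squares); each point is 1 library, and lines join libraries of 1 cell line only to guide the eye. DUSP6 and DUSP4 were far higher in AsPC-1, DUSP5 and SPRY4 were higher in PANC-1, and DUSP6 was lowest in the combination library of each line.

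DUSP6 (ENSG00000139318, chromosome 12, 89347232 to 89353271, minus strand) was the most abundant of the 8 in AsPC-1, at 193 TPM with vehicle, 176 with roseoflavin, 155 with trametinib and 136 with both. In PANC-1 the same treatments gave 18.6, 17.5, 14.0 and 12.5 TPM. The lines were far apart, a 10.5-fold difference of means, and in each line the order of the 4 libraries was the same. The difference, PANC-1 minus AsPC-1, was -3.32 on the log2(TPM + 1) scale (SE 0.0360, limma adjusted p = 3.58e-09), the scale of all log2 values below.

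DUSP4 (ENSG00000120875, chromosome 8, 29333064 to 29350668, minus strand) was at 48.0, 49.2, 43.6 and 46.1 TPM in the vehicle, roseoflavin, trametinib and combination libraries of AsPC-1. In PANC-1 it was at 0.122, 0.0710, 0.118 and 0.143 TPM, close to 0 in every library. The ratio of means was 411, but so low a denominator makes its size imprecise. The log2 difference was -5.42 (SE 0.0558, limma adjusted p = 3.02e-09).

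DUSP5 (ENSG00000138166, chromosome 10, 110497838 to 110511544, plus strand) showed the opposite pattern, with 1.09, 1.04, 0.603 and 1.14 TPM in AsPC-1 and 20.2, 23.4, 16.9 and 22.4 TPM in PANC-1, in the same order of treatments. The trametinib library was the lowest of the 4 in each line. DUSP5 was 21.3-fold higher in PANC-1 by means, a log2 difference of 3.46 (SE 0.0829, limma adjusted p = 8.12e-08). Summed over the 3 phosphatases, AsPC-1 held 183 to 242 TPM and PANC-1 31.0 to 40.9 TPM. DUSP6 alone made up 47.1% to 55.0% of the summed level of the 8 genes in AsPC-1 and 6.15% to 8.11% in PANC-1.

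SPRY4 (chromosome 5, 142310427 to 142326455, minus strand) was at 23.5, 25.3, 17.9 and 20.4 TPM in the vehicle, roseoflavin, trametinib and combination libraries of AsPC-1 and at 65.4, 61.2, 55.2 and 52.3 TPM in those of PANC-1. The lowest PANC-1 library was above the highest AsPC-1 library, and the means differed 2.69-fold, with a log2 difference of 1.39 (SE 0.0587, limma adjusted p = 1.01e-06). SPRY1 (chromosome 4, 123396795 to 123403760, plus strand) was at 15.7, 13.9, 16.1 and 15.9 TPM in AsPC-1 and 22.5, 20.4, 20.3 and 18.4 TPM in PANC-1. SPRY2 (chromosome 13, 80335976 to 80340951, minus strand) was at 29.7, 27.9, 28.97 and 26.4 TPM in AsPC-1 and 38.2, 39.3, 37.6 and 34.9 TPM in PANC-1. Both of these Sprouty genes were higher in PANC-1 on this scale, a direction that turned with quantile normalization, by 0.38 for SPRY1 (SE 0.0643, limma adjusted p = 0.00122) and 0.40 for SPRY2 (SE 0.0407, limma adjusted p = 9.41e-05).

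SPRED1 (chromosome 15, 38252326 to 38357249, plus strand) was at 10.7, 9.69, 12.5 and 11.8 TPM in AsPC-1 and 18.4, 18.5, 18.5 and 20.6 TPM in PANC-1. SPRED2 (chromosome 2, 65310851 to 65432637, minus strand) was at 28.8, 28.9, 27.8 and 30.3 TPM in AsPC-1 and 46.0, 42.5, 41.2 and 42.7 TPM in PANC-1. Both were higher in PANC-1, by 0.72 for SPRED1 (SE 0.0620, limma adjusted p = 3.76e-05) and 0.56 for SPRED2 (SE 0.0482, limma adjusted p = 3.82e-05). Summed over the 5 Sprouty and SPRED genes, AsPC-1 held 103 to 108 TPM and PANC-1 169 to 190 TPM.

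The median difference of all 19122 genes was 0.55, so the values of SPRY1 and SPRY2 lay below it, that of SPRED2 lay at it, and those of SPRED1, SPRY4 and DUSP5 lay above it. When TPM was rescaled without mitochondrial transcripts the median of all genes became 0.22, and the differences were 0.015 for SPRY1 (limma adjusted p = 0.840), 0.018 for SPRY2 (0.711) and 0.18 for SPRED2 (0.0174). With quantile normalization the median of all genes was 0.042 and SPRY1 and SPRY2 turned to -0.14 and -0.085, neither past the threshold, and SPRED2 was at 0.083 (limma adjusted p = 0.157). DUSP4, DUSP5, DUSP6, SPRY4 and SPRED1 kept their direction and passed under all 3 scalings, SPRY4 at 1.02 and 0.92 and SPRED1 at 0.36 and 0.18 under the alternatives. Over all genes the deposited scale gave 11917 higher and 4110 lower calls, the scale without mitochondrial transcripts 9814 and 6298, and quantile normalization 7963 and 7177.

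**Figure D2:**
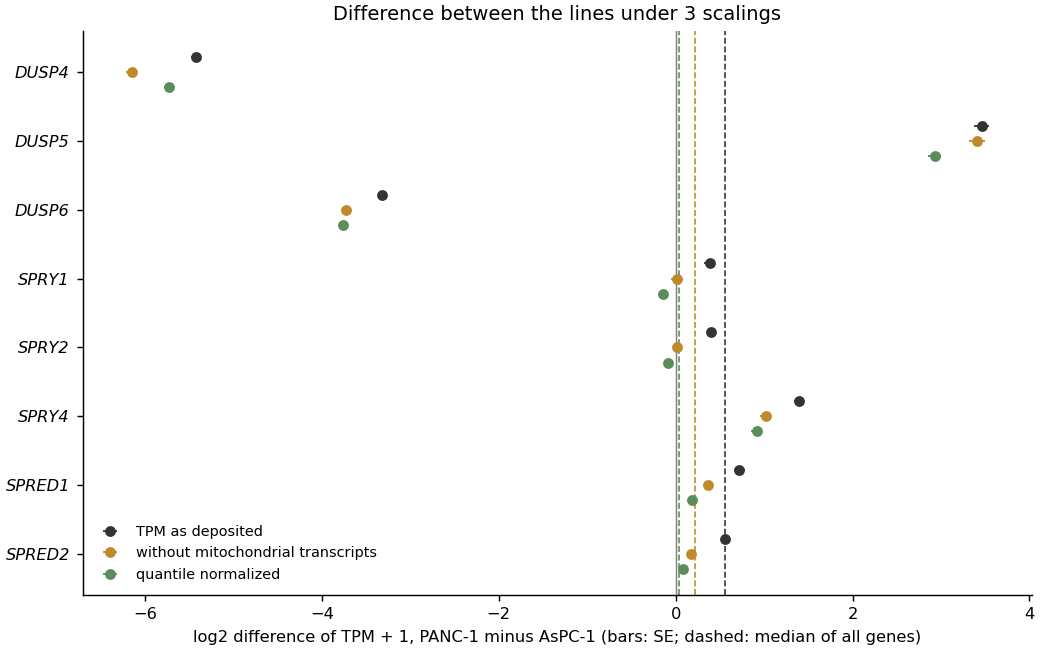
Difference of each gene between the lines (horizontal axis, log2 of TPM + 1, PANC-1 minus AsPC-1) under 3 scalings, with bars for the SE and dashed vertical lines for the median of all genes under the scaling of the same colour. DUSP4 and DUSP6 stayed far to the left and DUSP5 and SPRY4 to the right of every median, whereas SPRY1 and SPRY2 lay near 0 without mitochondrial transcripts and below 0 after quantile normalization, and SPRED2 was at 0.18 and 0.083.

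Ordered by mean level, AsPC-1 ran DUSP6, DUSP4, SPRED2, SPRY2, SPRY4, SPRY1, SPRED1 and DUSP5, and among neighbours in this order the ranges over the 4 libraries overlapped for SPRED2 and SPRY2. PANC-1 ran SPRY4, SPRED2, SPRY2, DUSP5, SPRY1, SPRED1, DUSP6 and DUSP4, and there the ranges of DUSP5 and SPRY1, of SPRY1 and SPRED1, and of SPRED1 and DUSP6 overlapped.

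With trametinib, DUSP6 and SPRY4 were lower and SPRED1 was higher in each of the 4 matched comparisons, that is, trametinib against vehicle and the combination against roseoflavin, in each line. The other 5 genes did not stand on 1 side in all 4 comparisons, apart from SPRY2, whose values were small, and none of the 8 passed the test over all genes. This comparison asks what 1 nM of the MEK inhibitor did to the transcripts that report on ERK output. In bulk RNA, fewer cells of a type and less RNA per cell cannot be told apart. Limma called 0 of 19122 genes (0.0%) for trametinib over both lines, and 938 genes had an unadjusted p under 0.05. For DUSP6 the lowest adjusted p of this comparison under any alternative was 0.210, with the filter on a mean of 10 TPM.

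DUSP6 was the gene with the smallest p of all 19122. Its changes were -19.8% (trametinib against vehicle) and -22.9% (combination against roseoflavin) for AsPC-1. The same 2 comparisons gave -24.9% and -28.3% for PANC-1. In both lines the 2 libraries with trametinib were below the 2 without it. Over both lines the log2 change was -0.38 (SE 0.0360, 95% interval -0.47 to -0.29, unadjusted p = 2.95e-05, limma adjusted p = 0.564). It was -0.34 in AsPC-1 (SE 0.0413, limma adjusted p = 0.271) and -0.42 in PANC-1 (SE 0.0413, limma adjusted p = 0.474). Between lines whose mean levels lay 10.5-fold apart, the log2 change differed by -0.074 (95% interval -0.24 to 0.090).

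SPRY4 changed by -23.8% and -19.5% in the matched comparisons of AsPC-1 and by -15.5% and -14.5% in those of PANC-1. In each line both libraries with trametinib were again below both without it. The log2 change over both lines was -0.28 (SE 0.0587, 95% interval -0.43 to -0.14, limma adjusted p = 0.861), with values of -0.34 for AsPC-1 (SE 0.0420) and -0.23 for PANC-1 (SE 0.0420). These 2 values differed by 0.11 (95% interval -0.060 to 0.27).

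SPRED1, unlike DUSP6 and SPRY4, was at 16.3% and 22.1% more in the matched comparisons of AsPC-1 and at 0.746% and 11.1% more in those of PANC-1. Both trametinib libraries were above both others in AsPC-1, but in PANC-1 the groups overlapped, with 18.505 TPM in the roseoflavin library and 18.495 TPM in the trametinib library. Over both lines the log2 change was 0.15 (SE 0.0620, 95% interval 0.0046 to 0.30, limma adjusted p = 0.861). SPRY2 was lower in 4 of 4 matched comparisons by a small amount, -0.075 (SE 0.0407, 95% interval -0.17 to 0.023), and at -0.044 without the PANC-1 roseoflavin library. DUSP5 was at -0.16 (SE 0.0829), as far from 0 as SPRED1 but lower in 3 of 4. The exception was the combination against roseoflavin in AsPC-1, where its level is about 1 TPM, and without the AsPC-1 vehicle library the value was -0.087. DUSP4, SPRED2 and SPRY1 were at -0.035, -0.033 and -0.014 over both lines, with standard errors of 0.0558, 0.0482 and 0.0643.

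Counted together, 7 of the 8 genes had a log2 change below 0, against 41.0% of all genes, and their median was -0.055, against 0.018 for all genes. DUSP4, SPRED2 and SPRY1 were within 0.04 of 0 and changed sign under at least 1 alternative setting. With an unadjusted p under 0.05, 2 were lower (DUSP6 and SPRY4), against 1.78% of all genes, and 1 was higher (SPRED1), against 3.12%. Lower in 4 of 4 matched comparisons were 3 (DUSP6, SPRY4 and SPRY2), against 4.54% of all genes, and higher in 4 of 4 was 1 (SPRED1), against 9.66%. Over both lines the 5th to 95th percentile of all genes ran from -0.22 to 0.21, so DUSP6 and SPRY4 lay outside that range and the other 6 genes inside it.

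**Figure D3:**
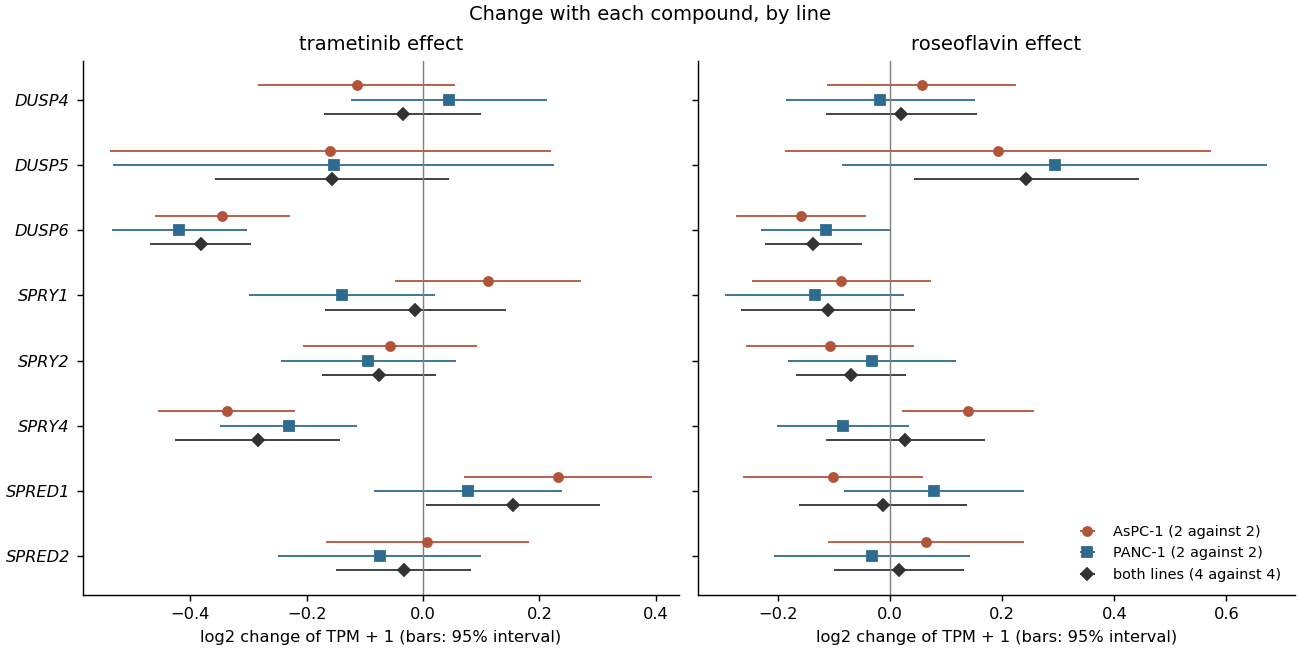
Log2 change of each gene (horizontal axis, log2 of TPM + 1) with trametinib (left panel) and roseoflavin (right panel) in AsPC-1 (circles, 2 libraries against 2), in PANC-1 (squares, 2 against 2) and over both lines (diamonds, 4 against 4), with bars for the 95% interval before adjustment. For trametinib the intervals of DUSP6 and SPRY4 lie below 0 in both lines, and no gene passed after adjustment over all genes.

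Within AsPC-1, limma called 0 genes (0.0%) with trametinib and 2691 had an unadjusted p under 0.05, 4.65% of all genes lower and 9.42% higher. Among those 2691 were 3 of the 8 genes, DUSP6 and SPRY4 lower and SPRED1 higher. DUSP4, DUSP6 and SPRY4 had both trametinib libraries below both others, as did 13.3% of all genes, and SPRY1 and SPRED1 had both above, as did 24.0%. Of these, DUSP4 was at -0.11 (SE 0.0601), SPRY1 at 0.11 (SE 0.0568) and SPRED1 at 0.23 (SE 0.0575, limma adjusted p = 0.302). Within PANC-1, limma called 0 genes (0.0%) and 919 had an unadjusted p under 0.05. The trametinib libraries were both below the others for DUSP6, SPRY1, SPRY2 and SPRY4, as for 11.6% of all genes, with SPRY1 at -0.14 (SE 0.0568) and SPRY2 at -0.094 (SE 0.0534). The genes with an unadjusted p under 0.05 in PANC-1 were DUSP6 and SPRY4, both lower, as were 2.35% of all genes.

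SPRY1 stood on opposite sides of 0, at 0.11 for AsPC-1 and -0.14 for PANC-1. The PANC-1 value minus the AsPC-1 value was -0.25 (SE 0.0804, 95% interval -0.48 to -0.025, unadjusted p = 0.0370, limma adjusted p = 0.508). Limma called 0 genes (0.0%) for a difference between lines in the trametinib change, and 1854 genes, 9.7%, had an unadjusted p under 0.05. For DUSP4 the difference was 0.16 (95% interval -0.080 to 0.40) and for SPRED1 it was -0.15 (95% interval -0.38 to 0.073).

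With roseoflavin, 6 of the 8 genes were within 0.12 of 0 on the log2 scale over both lines, while DUSP6 was slightly lower and DUSP5 higher. Of the 8, 4 were below 0, against 57.8% of all genes, and 0 were higher in 4 of 4 matched comparisons, against 4.91% of all genes. Limma called 0 of 19122 genes (0.0%), and 1358 had an unadjusted p under 0.05. DUSP6 was at -0.14 (SE 0.0360, 95% interval -0.22 to -0.050, unadjusted p = 0.00807, limma adjusted p = 0.641). All 4 of its matched comparisons were below 0, with AsPC-1 giving -8.76% and -12.2% and PANC-1 giving -5.98% and -10.3%. It was the member with an unadjusted p under 0.05 in the lower direction, where 5.07% of all genes were found. SPRY1 was also lower in 4 of 4, as were 10.2% of all genes, at -0.11 (SE 0.0643).

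DUSP5 was at 0.24 with roseoflavin (SE 0.0829, 95% interval 0.043 to 0.44, unadjusted p = 0.0247, limma adjusted p = 0.673), where 2.03% of all genes were higher with an unadjusted p under 0.05. The change was 15.7% against vehicle and 32.6% against trametinib in PANC-1, the line in which DUSP5 is well above 1 TPM. In AsPC-1 it was -4.22% against vehicle and 89.1% against trametinib, both between levels near 1 TPM. SPRY2 was at -0.070 (SE 0.0407), and SPRY4, DUSP4, SPRED2 and SPRED1 were at 0.027, 0.020, 0.016 and -0.012.

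SPRY4 had a positive value in AsPC-1 with roseoflavin, 0.14 (SE 0.0420, limma adjusted p = 0.406), and a negative one in PANC-1, -0.084 (SE 0.0420, limma adjusted p = 0.548). The second minus the first was -0.22 (SE 0.0594, 95% interval -0.39 to -0.056, unadjusted p = 0.0210, limma adjusted p = 0.371), in a comparison in which limma called 0 genes (0.0%) and 2227, 11.6%, had an unadjusted p under 0.05. Within AsPC-1 limma called 0 genes (0.0%), and unadjusted p under 0.05 held for DUSP6, lower at -0.16 (8.57% of all genes were lower), and for SPRY4, higher (2.75% were higher). Within PANC-1 limma called 0 genes (0.0%), and none of the 8 had an unadjusted p under 0.05, against 10.8% of all genes, with DUSP6 at -0.11 (SE 0.0413) and DUSP5 at 0.29 (SE 0.135).

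Both compounds together gave the lowest DUSP6 of each line, -29.6% against vehicle in AsPC-1 and -32.6% in PANC-1. In the same order of lines SPRY4 was at -13.5% and -19.9%, and SPRED1 was at 10.3% and 11.98%. On the log2 scale DUSP6 in the combination departed from what the 2 single compounds add up to by -0.058 (SE 0.0786, 95% interval -0.26 to 0.14). This value was -0.018 without the PANC-1 roseoflavin library, -0.019 without the AsPC-1 trametinib library, -0.099 without the AsPC-1 roseoflavin library and -0.097 without the PANC-1 trametinib library. Limma called 0 genes (0.0%) for this interaction and 536, 2.8%, had an unadjusted p under 0.05. DUSP5 was among them, at 0.32 (SE 0.121, unadjusted p = 0.0437, limma adjusted p = 1.00): its roseoflavin change was larger over trametinib than over vehicle in both lines, as the values above show.

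Around these genes, the wider pathway was described by 6 lists. Of 17 transcripts known to follow ERK activity, 15 were tested, 14 were lower and 1 higher with trametinib over both lines, where 41.0% of all genes were lower, 0 passed adjustment, and the median was -0.11. By line the counts were 10 lower and 5 higher in AsPC-1 (median -0.047, 43.3% of all genes lower) and 14 lower and 1 higher in PANC-1 (median -0.096, 44.5% of all genes lower). Those with an unadjusted p under 0.05 were FOS, EGR1, IER3 and PHLDA1, all lower, against 1.78% of all genes, where PHLDA1 is named to complete the 4. Of the 15 tested, 7 were lower in 4 of 4 matched comparisons, against 4.54% of all genes, and 0 were higher in 4 of 4, against 9.66%. FOS, a subunit of the AP-1 transcription factor, was at 54.8, 34.0, 45.3 and 29.9 TPM in AsPC-1 and 11.3, 8.39, 7.97 and 5.86 TPM in PANC-1 with vehicle, roseoflavin, trametinib and both. FOS was thus lower with either compound in each line, with a log2 change of -0.34 for trametinib (SE 0.0746, limma adjusted p = 0.861) and -0.51 for roseoflavin (SE 0.0746, limma adjusted p = 0.551). EGR1, a zinc-finger factor of the immediate early response, was at -0.33 (SE 0.0651), IER3, an early response gene with a role in cell survival and the most abundant of the list, at -0.24 (SE 0.0745), and PHLDA1 at -0.23 (SE 0.0771). IER3 and PHLDA1 had their larger values in AsPC-1, -0.38 and -0.41, against -0.096 and -0.050 in PANC-1, differences of 0.28 (SE 0.0548) and 0.36 (SE 0.0496) that did not pass (limma adjusted p = 0.493 for each). Over both lines DUSP6, at -0.38, was lower than all 15 of them, and SPRY4 lay between EGR1 and IER3. Within a single line DUSP6 was not the lowest. In AsPC-1 it was at -0.34, against -0.41 for PHLDA1, and in PANC-1 at -0.42, against -0.59 for FOSB, a gene of low level.

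The 7 other MAP kinase phosphatases did not share a direction. With trametinib 4 were lower, against 41.0% of all genes, and 3 higher, the median was -0.0066, and 0 passed adjustment. DUSP8 and DUSP2 were higher in 4 of 4 matched comparisons, as were 9.66% of all genes, at 0.31 (SE 0.0890) and 0.25 (SE 0.0802), both at low levels of 1.25 to 3.08 TPM and 0.229 to 3.07 TPM. DUSP16, which acts mainly on JNK and p38, was at 0.19 (SE 0.0811). Its PANC-1 value minus its AsPC-1 value was -0.33 (SE 0.0793, limma adjusted p = 0.493), the larger rise being in AsPC-1. DUSP1, with the highest mean of this list over both lines, stood at 11.9 to 17.1 TPM in AsPC-1 and 73.3 to 81.4 TPM in PANC-1. In AsPC-1 alone DUSP7 was higher than DUSP1, at 20.6 to 24.8 TPM. The remaining family members SPRY3 and SPRED3 were at -0.047 and -0.056 (SE 0.0860 and 0.108), with levels of at most 1.32 and 4.91 TPM.

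Of 11 other negative regulators of receptors and RAS, 2 were lower and 9 higher, with a median of 0.059, where 41.0% of all genes were lower. DAB2IP, a RAS GTPase-activating protein, was at 0.16 (SE 0.0478) and NF1, which encodes neurofibromin, at 0.070 (SE 0.0468). PEBP1, a RAF inhibitor with the highest mean of the list over both lines, was at 0.059 (SE 0.0463), although in PANC-1 ERRFI1 was above it. Of 14 genes of the core cascade 4 were lower, against 41.0% of all genes, and 10 higher. The median of this list was 0.033, and NRAS, which encodes a RAS GTPase, was at 0.13 (SE 0.0648). For NRAS the PANC-1 value minus the AsPC-1 value was -0.24 (SE 0.0966, 95% interval -0.51 to 0.033). GRB2, the adaptor that links receptors to SOS, was the most abundant of that list. Of 9 receptors 4 were lower, against 41.0% of all genes, and 5 higher, with a median of 0.029. Higher in 4 of 4 matched comparisons were 4 receptors, 3 of these negative regulators and 2 core genes, against 9.66% of all genes. Lower in 4 of 4 were 0, 1 and 0 in the same order, against 4.54% of all genes. FGFR2, FGFR4 and ERBB3 were at 0.12, -0.097 and 0.060 (SE 0.0852, 0.0733 and 0.0509). MET was the most abundant receptor. None of these genes passed adjustment, and the lists' medians other than that of the ERK-responsive transcripts lay within 0.06 of 0.

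**Figure D4:**
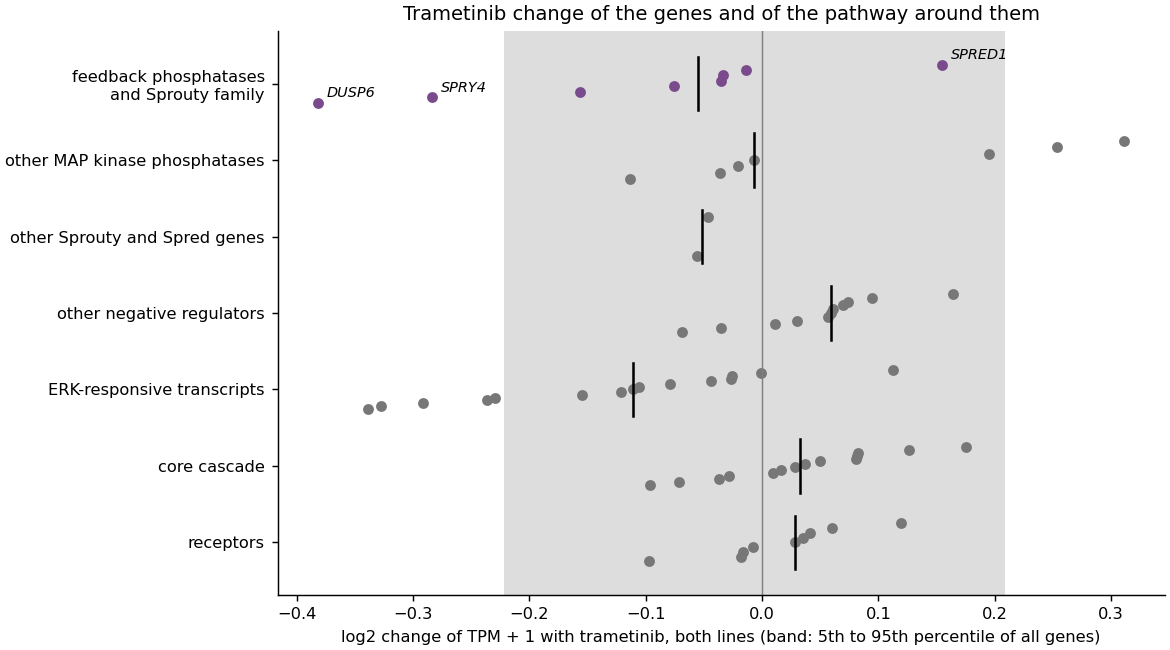
Log2 change with trametinib over both lines (horizontal axis, log2 of TPM + 1) for the 8 genes (top row) and for 6 lists of pathway genes, 1 point a gene, with a vertical bar for the median of each list and a grey band from the 5th to the 95th percentile of all genes. DUSP6 and SPRY4 lie left of the band together with FOSB and 4 other ERK-responsive transcripts, while DUSP8 and DUSP2 lie right of it.

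After each line was centred on its own mean, the genes averaging 10 TPM or more whose levels followed DUSP6 most closely over the 8 libraries were PIAS3, CLP1 and ANTXR2, with Pearson r of 0.953, 0.952 and 0.950. For SPRY4 they were CHST11, GEMIN4 and EDAR (0.961, 0.955 and 0.953), where EDAR was at or below 0.025 TPM in PANC-1 and its value rests mainly on AsPC-1. For SPRED1 they were IREB2, CTDSPL and ECE1 (0.991, 0.990 and 0.987). The closest to SPRY1 was SLTM (0.987), to SPRY2 ZNHIT1 (0.944), to SPRED2 UBE2Q1 (0.942), to DUSP4 CCDC71 (0.962) and to DUSP5 PARVB (0.974). DUSP4 was at or below 0.143 TPM in PANC-1, so its value rests in part on differences between levels near 0. These values are the highest of 8629 genes compared over 8 points that share treatments and libraries, and they describe these libraries. Among the 8 genes themselves DUSP6 followed SPRY2 (0.822) and SPRY4 (0.781), while SPRY4 and SPRED1 ran opposite to each other (-0.912).

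Genes overlap 3 of the 8 in the GENCODE 29 annotation. An antisense gene at DUSP6, AC024909.2, was at 0.046 to 0.381 TPM, SPRY4-AS1 at SPRY4 was at 0.536 to 1.57 TPM, and AC012370.1 within an intron of SPRED2 was at 0 to 0.840 TPM. The library kit keeps strand, but whether counting used it is not given in the sources used here. Reads of AC024909.2 and SPRY4-AS1 may therefore not be separate from those of their partners. AC012370.1 lies on the same strand as SPRED2, so strand would not separate these 2. The levels of the overlapping genes were small beside those of DUSP6, SPRY4 and SPRED2.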

How the data were processed

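RNA-seq of 8 libraries, 1 for each line and treatment, was analysed; groups follow the treatment and line in the labels. The authors deposited 1 table of TPM per gene, per the file headers, with every library summing to 1000000 TPM. The submitters' processing notes name STAR 2.7.3a, HTSeq 2.0.2 and hg38; how TPM was computed and the annotation are not given in the sources used here. Libraries were made with a stranded mRNA kit, per the labels' protocols. The table had 985926 blank rows, which were dropped.

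The 19122 genes that reached 1 TPM in a minimum of 2 libraries were tested as log2(TPM + 1), which understates changes of low genes, with limma 3.58.1 in R 4.3.3 (eBayes with a trend) and Benjamini-Hochberg adjustment over all genes at 0.05. Effects over both lines came from an additive model of line, roseoflavin and trametinib with 4 residual degrees of freedom. Effects within lines and their difference came from 1 model with both compounds nested in the line, with 2 residual degrees of freedom, and the interaction from the additive model with 1 more term. The code was tested on simulated data. Alternatives were a pseudocount of 0.1, no filter, a filter on a mean of 10 TPM, quantile normalization, TPM rescaled without mitochondrial transcripts, no trend, leaving out each library, and no line term.

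Named are the 8 genes and, per pathway list, the 3 genes with the smallest p for trametinib, the most abundant gene and any past the threshold, plus the genes closest to each of the 8 over line-centred libraries; some genes that this rule names are not reported here. The genes and lists were chosen with earlier results of these data known. Coordinates are from GENCODE release 29, matched by gene identifier, and promoters from RefSeq on GRCh38.p14.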

Additional observations from a re-analysis of the deposited data

Results flagged for a closer look

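In 3 cases both matched changes of one line lay on the opposite side of 0 from both of the other line. For SPRY1 with trametinib the difference, PANC-1 minus AsPC-1, was -0.25 on the log2 scale (SE 0.0804, limma adjusted p = 0.508). SPRY1 was at 2.68% and 14.9% more in AsPC-1, while PANC-1 gave -9.46% and -9.74%. For SPRY4 with roseoflavin the difference was -0.22 (SE 0.0594, limma adjusted p = 0.371), from 7.54% and 13.6% more in AsPC-1 against -6.28% and -5.27% for PANC-1. For SPRED1 with roseoflavin the difference was 0.18 (SE 0.0813, limma adjusted p = 0.486), from -9.63% and -5.19% for AsPC-1 against 0.801% and 11.1% more for PANC-1. The same opposition of signs held for 13.7% of all genes with trametinib and 16.8% with roseoflavin, and none of the 3 differences passed adjustment over all genes.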

How the results depend on the processing

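The counts of genes called for each compound, within and over the lines, for the differences between lines in those effects and for the interaction were 0 in every alternative run. The 16027 calls between the lines became 8388 when genes below a mean of 10 TPM were left out, which leaves 9368 genes to test, and ran from 15618 to 15789 when each library was left out in turn. Of 566 alternative values for the 8 genes, 555 were counted as unchanged. For fitted values this meant the same direction and side of the threshold, and for single-library changes a move of less than 0.1. Part of this count was fixed in advance, since leaving out a library of 1 line cannot move a change fitted within the other line. With 0 genes called for the compounds in every run, no compound value differed in its side of the threshold. With quantile normalization the line difference was -0.14 for SPRY1 and -0.085 for SPRY2. With a pseudocount of 0.1 the trametinib change of DUSP4 was 0.062; DUSP4 in PANC-1 lies below 0.15 TPM, where the pseudocount sets the value. Leaving out 1 library at a time moved the trametinib change of SPRED2 over -0.070 to 0.0089, positive without the PANC-1 vehicle library, and that of SPRY1 over -0.070 to 0.024, positive when any 1 of the 4 PANC-1 libraries was left out. The changes of DUSP6 and SPRY4 with trametinib ran from -0.40 to -0.36 and from -0.33 to -0.23 in the same runs, that of DUSP5 from -0.22 to -0.087, that of SPRY2 from -0.098 to -0.044 and that of DUSP4 from -0.076 to -0.00037. The roseoflavin change of SPRY1 ran from -0.17 (without the AsPC-1 combination library) to -0.067 (without the AsPC-1 roseoflavin library), its trametinib change in AsPC-1 from 0.036 to 0.19, the difference between lines with trametinib from -0.10 to -0.044 for DUSP6 and from 0.069 to 0.14 for SPRY4, and the DUSP6 interaction from -0.099 to -0.018. The labels number no replicates, so no replicate block could be fitted; libraries were matched within a line by the line term, and without that term 0 genes were called, with 46 (trametinib) and 56 (roseoflavin) at an unadjusted p under 0.05. Depth is unknown from TPM, and with no replicates the size of culture-to-culture variation was not measured.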

Other observations

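Beyond the 8 genes, the lines also differed in other parts of the pathway, in genes picked here after their values were seen. ERBB3, the receptor that signals through ERBB2, was at 125 to 141 TPM in AsPC-1 and 0.333 to 0.455 TPM in PANC-1, a log2 difference of -6.56 (SE 0.0509, limma adjusted p = 1.37e-09). ERRFI1, a feedback inhibitor of the EGF receptor, was at 44.4 to 52.6 TPM in AsPC-1 and 615 to 773 TPM in PANC-1, a difference of 3.79 (SE 0.0922, limma adjusted p = 8.68e-08). DUSP9, another ERK-directed phosphatase, was higher in PANC-1 by 2.48 (SE 0.108, limma adjusted p = 1.19e-06), and MET, the receptor for hepatocyte growth factor, was at -1.99 (SE 0.0342, limma adjusted p = 2.00e-08).

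With roseoflavin the 15 ERK-responsive transcripts did not share a direction, 9 lower, where 57.8% of all genes were lower, and 6 higher, with a median of -0.014. FOS and EGR1 were lower in 4 of 4 matched comparisons, as were 10.2% of all genes, EGR1 at -0.26 (SE 0.0651, limma adjusted p = 0.615), while FOSL1, another AP-1 subunit, was higher in 4 of 4, as were 4.91% of all genes, at 0.28 (SE 0.0910, limma adjusted p = 0.660). None passed adjustment over all genes, and FOSL1 was picked after its values were seen.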
